A study of Mus musculus with 7 samples.

Results

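Classical monocytes were picked out barcode by barcode from single-cell transcriptomes of leukocytes sorted from mouse brains carrying GL261 glioma, a mouse glioma cell line. A barcode was counted as a classical monocyte when it held at least 2 transcript molecules (unique molecular identifiers, UMIs) of Ly6c2 and at least 2 of Plac8 and Chil3 together. It could hold at most 2 UMIs of the complement genes C1qa, C1qb and C1qc, which mark macrophages and microglia. UMIs of the microglial genes P2ry12 and Tmem119, the T cell genes Cd3e, Cd3d and Cd3g, the NK cell gene Ncr1, the plasmacytoid gene Siglech and the cycling gene Mki67 had to be 0. The rule was applied to 40416 barcodes in which 300 or more genes were detected and mitochondrial UMIs did not exceed 10%, and 2598 of them met it (6.43%). The levels of these selection genes are therefore given only as a description.

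Classical monocytes leave the bone marrow through the chemokine receptor Ccr2 and enter inflamed tissue, where they can become macrophages or antigen-presenting cells. In glioma they are a source of tumour macrophages. They respond to interferons, and activated monocytes can make inducible nitric oxide synthase (Nos2) or arginase (Arg1), which compete for arginine. HIF-2α, encoded by Epas1, is an oxygen-regulated transcription factor that PT2385 keeps from binding its partner ARNT.

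Female wild-type mice, 8 to 9 weeks old per the labels, received PT2385 with immune checkpoint blockade (2 libraries), PT2385 alone (2), checkpoint blockade alone (ICB, with anti-PD-1 and anti-TIM-3 antibodies; 2) or no treatment (1). Every library pooled 2 mice, 5000 cells from each, taken from the tumour-bearing left hemisphere at day 21 and sorted as positive for CD45 and negative for DRAQ7, a dye that enters dead cells. PT2385 was given at 10 mg/kg from day 7. The labels state a course of 21 days, which reaches beyond the day of harvest, and do not say whether the untreated mice received vehicle or isotype antibodies. The other untreated pool is not analysed here. Pools 1 and 2 of a group are numbered in the order of their records, and those numbers pair nothing between groups. Comparisons between treatments rest on 7 libraries, so p-values measure the spread between pools, and every comparison with untreated mice rests on 1 library.

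The libraries held 59839154 to 81960504 UMIs and 123 to 744 classical monocytes. Their median depth was lowest in the untreated library (7316.5 UMIs per cell) and highest in PT2385+ICB pool 1 (11606). It ran from 9543 to 11606 in the 4 libraries with PT2385 and from 7316.5 to 9102 in the 3 without, so depth and PT2385 go together. The limits of the rule are counts of UMIs and do not scale with depth. Of 40242 distinct kept barcode sequences 174 occurred in 2 libraries, as did 32 of those that met the rule. The library ICB pool 1 stood apart in neutrophil transcripts. Among its monocyte barcodes S100a9, a calprotectin subunit that neutrophils store, had 3989 CPM (the UMIs of a gene scaled to the summed UMIs of these barcodes in the library), against 0.32 to 251.2 CPM in the other 6 libraries. The S100a8 UMIs sat in few barcodes: 4 of the 333 in ICB pool 1 held at least 50% of them, as did 1 to 8 in each of the other libraries. Markers of T cells summed to at most 10.4 CPM in any library and those of NK cells to at most 17.99 CPM. The 6 markers of B and plasma cells summed to 1285 CPM in PT2385+ICB pool 2, of which Jchain gave 1176 CPM, against 51.7 to 262.5 CPM in the other libraries. Their part in the results was not tested. Ttr, a choroid plexus gene, had 1616 CPM in ICB pool 2, 266.3 to 353.6 CPM in the PT2385+ICB pools and 0 CPM in the untreated library.

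The label was checked against Ccr2, which the rule did not use. Ccr2 UMIs were found in 78.3 to 96.0% of the barcodes by library, against 25.3 to 41.6% of T cell barcodes, and its level averaged 651.8 ± 173.2 CPM (SD, n = 7). In C1q-high macrophages, defined by at least 10 C1q UMIs with the same exclusions, it averaged 378.1 CPM, and in T cell barcodes 146 CPM. Of the 5670 C1q-high macrophages 3492 also met the Ly6c2 criterion and that of Plac8 and Chil3. By the rule, those differ from classical monocytes in their C1q count alone. Of 30 classical monocyte genes outside the rule, 22 were higher in classical monocytes than in C1q-high macrophages in each of the 7 libraries. They included Vcan (versican, a matrix proteoglycan; 55.5 against 4.32 CPM), Hp (haptoglobin; 325.3 against 81.9 CPM) and S100a4 (539.8 against 96.1 CPM). Only Csf1r, the receptor for the macrophage growth factor, was lower in each library (495.3 against 585.2 CPM). Plac8 was present in 98.5 to 100% of the barcodes by library and Chil3 in 26.2 to 49.9%, so the pair was mostly met through Plac8.

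Transcripts of other myeloid states were also found. Apoe, a lipid carrier of macrophages, was detected in 88.6 to 99.0% of barcodes by library at 2758 to 8444 CPM, lowest in ICB pool 1. H2-Ab1, an MHC class II chain, was detected in 81.4 to 99.7%. T cell barcodes, which should lack both, held Apoe in 53.3 to 88.3% and H2-Ab1 in 27.5 to 58.8%, and these shares are the background for the detection in monocytes. With each barcode thinned to 3000 UMIs, Apoe was detected in 76.0 to 93.0% of monocytes, against 27.2 to 61.7% of T cell barcodes. Flt3, a dendritic cell growth factor receptor, averaged 20.4 CPM in monocytes and 1.98 CPM in macrophages. Ly6g, which marks neutrophils, was at or below 1.0 CPM except in ICB pool 1 (28.3 CPM).

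No gap in levels lay at the C1q limit. Among barcodes that met every other criterion, 1030 held 0 C1q UMIs, 1021 held 1 and 547 held 2, and beyond the limit 427 held 3 to 5, 156 held 6 to 9 and 3492 held 10 or more. Just inside the limit, at 2 C1q UMIs, Ccr2 had 683.5 CPM over all libraries, and just outside, at 3, it had 583.9 CPM. Apoe had 6970 CPM inside and 8056 CPM outside. A wider gap lay at 10 or more C1q UMIs, where Vcan averaged 6.59 ± 4.69 CPM and Apoe 14470 ± 3445 CPM (SD, n = 7), against 67.4 ± 30.6 and 7116 ± 2209 CPM at 0. Hp averaged 114.3 ± 46.0 CPM at 10 or more and 348.4 ± 91.9 CPM at 0. At the Ly6c2 limit, barcodes with 2 UMIs had 400 CPM of Ccr2 and those with 1 UMI had 343.1 CPM. Within the rule, Ly6c2 counts ran up to 205 UMIs with a median of 16, so the barcodes near that limit were few (169 with 2 UMIs).

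**Figure D1:**
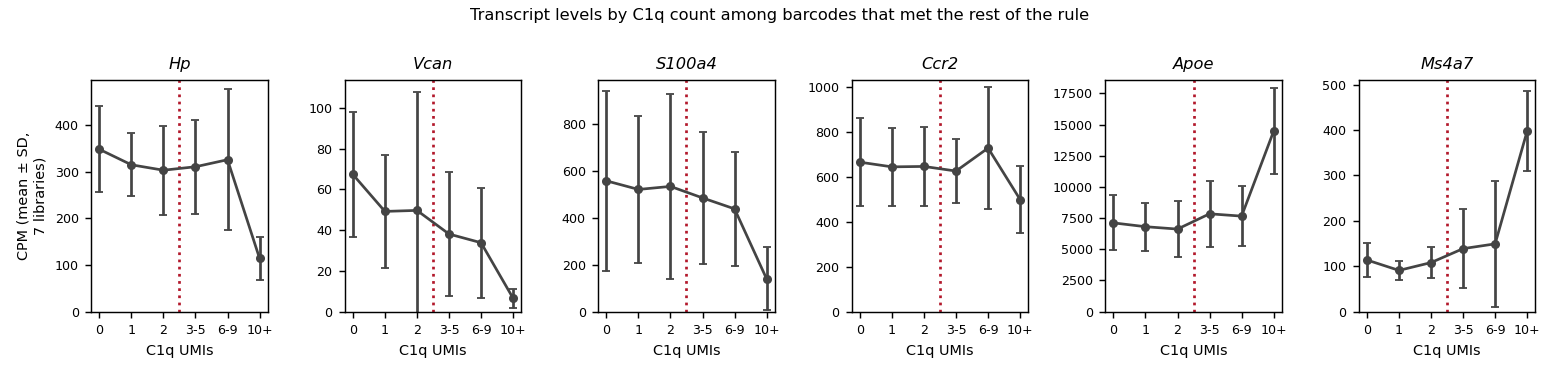
Mean level (CPM of UMIs summed per library, vertical axis, from 0) of 6 genes against the number of C1q UMIs per barcode (horizontal axis), among barcodes that met the other criteria. Points are means and bars SDs over 7 libraries, and the dotted line is the C1q limit of the rule. Hp, Vcan and S100a4 are low and Apoe and Ms4a7 high at 10 or more C1q UMIs. Vcan was already lower at 6 to 9 (33.8 CPM) than at 0 (67.4 CPM).

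Classical monocytes made up the smallest share in mice given both treatments. They were 2.54% and 2.32% of kept barcodes in the PT2385+ICB pools, 5.51% and 8.16% in the PT2385 pools, 5.66% and 9.52% in the ICB pools and 9.35% in the untreated library. The widest exact 95% binomial interval, in ICB pool 2, ran from 8.78% to 10.3%, and such intervals cover counting error only. Both PT2385+ICB pools lay below the other 5 libraries, while the PT2385 and ICB pools overlapped. Libraries with PT2385 averaged 4.63 ± 2.76% (SD, n = 4) and those without 8.18 ± 2.18% (n = 3), a difference of -3.54 points that did not pass an exact two-sided permutation test (p = 0.114, adjusted p = 0.389 over 34 tests of shares; the smallest p for 4 against 3 is 0.0286). The ICB difference was -2.66 points (exact permutation p = 0.343, adjusted p = 0.507). With 2 pools against 2, no exact p can go below 0.333, so the combination was not tested against a single treatment. As a share of myeloid barcodes the PT2385+ICB pools were again lowest, at 3.71% and 2.85%, against 12.6% in the untreated library. With the rule applied to barcodes thinned to 3000 UMIs they were lowest too, at 4.81% and 3.27%. The PT2385 pools then had 7.75% and 11.7%, the ICB pools 7.34% and 11.7% and the untreated library 13.6%. A share of sorted cells cannot tell fewer monocytes from more of other cells, and Ly6c2, by which the barcodes were chosen, itself ranged from 1845 to 3256 CPM.

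**Figure D2:**
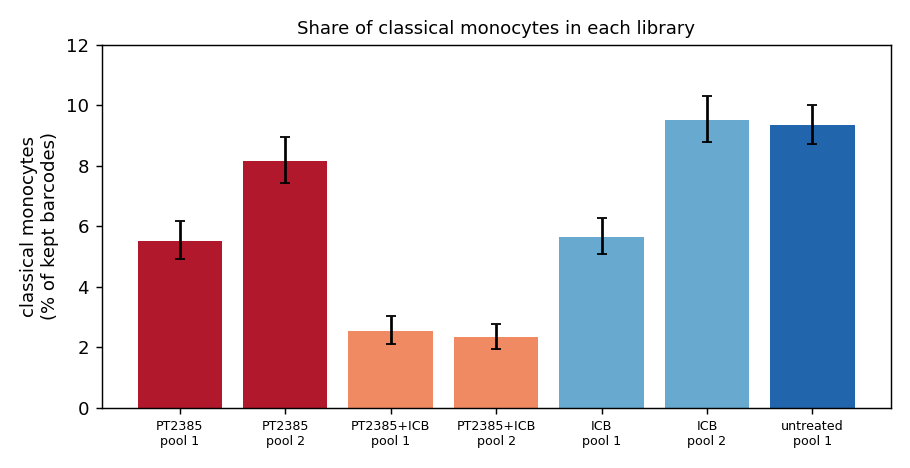
Share of kept barcodes that met the rule (percent, vertical axis, from 0) in each of the 7 libraries. Bars are libraries, coloured by treatment, with exact 95% binomial intervals of counting error. The PT2385+ICB pools, at 2.54% and 2.32%, lie below the other 5 libraries.

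With PT2385, classical monocytes held more Nos2 and more transcripts of the interferon-inducible GTPases Iigp1, Gm4951 and Gbp2b, and fewer of the monocyte genes S100a4, Ccl9 and Fn1 and of sterol genes such as Cyp51. The effect of PT2385 compares 4 libraries with it (alone or with ICB) with 3 without, in an additive model with ICB. Of 10361 genes tested by edgeR's quasi-likelihood test, 131 passed at an adjusted p under 0.05 (1.26% of genes tested), 39 of them higher (0.376%) and 92 lower (0.888%). In 122 of the 131 the libraries with and without PT2385 did not overlap, against 14.8% of all genes tested. The 131 were picked by a test on these same libraries, so this is a description and adds no support. DESeq2 called 330 genes, 127 of them the same. In C1q-high macrophages 129 of the 131 genes were tested, and 126 of them had the same direction there. The same threshold was passed in both populations by 43 genes, and in macrophages by 170 of 12479. The directions of the called genes were thus mostly seen in macrophages too. The share with the same direction over all genes tested was not counted. Both populations come from the same libraries, so 126 of 129 is a description only. The count depended on the untreated library, without which 0 genes passed, and on PT2385 pool 1 (4 without it), PT2385 pool 2 (5) and PT2385+ICB pool 2 (15). Without ICB pool 1, the library rich in neutrophil transcripts, 158 passed, 113 of them the same, and without ICB pool 2 352 passed. No gene passed in each of the 7 fits that leave out 1 library. Without the untreated library the additive model has as many terms as groups. Its PT2385 effect is then that of the combination against ICB alone, so that fit does not check the same comparison.

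Nos2 rose most among the genes named here. It had 469.8 and 408 CPM in the PT2385 pools and 82.3 and 157 CPM in the PT2385+ICB pools, against 2.07 and 9.54 CPM in the ICB pools and 40.4 CPM in the untreated library. Each library with PT2385 lay above each library without it, and the spread among the 4 was wide. The log2 fold change was 3.74 ± 0.37 (SE; edgeR adjusted p = 0.00864). Nos2 passed in 6 of 7 fits with 1 library left out. It failed without the untreated library (edgeR adjusted p = 0.126), where the fit sets the combination against ICB alone. T cell barcodes held at most 1.68 CPM of Nos2, and C1q-high macrophages changed in the same direction (2.63, edgeR adjusted p = 0.0401). Over all libraries 472 of 2598 monocytes held a Nos2 UMI and 460 an Arg1 UMI, and 156 held both. By library Arg1 UMIs were found in 15.6 to 38.9% of the barcodes with Nos2 and 5.62 to 22.8% of those without. Arg1 itself did not pass with PT2385 (0.73 ± 0.62, edgeR adjusted p = 0.629). It had 431.4 and 363.8 CPM in the PT2385 pools but 80.2 and 180.6 CPM in the PT2385+ICB pools, against 175.6 and 164.4 CPM in the ICB pools and 55.4 CPM in the untreated library.

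Some genes of the immunity-related and guanylate-binding GTPases, which attack vacuoles of intracellular microbes, rose as well, and others, such as Gbp5 (log2 -0.07, edgeR adjusted p = 0.923) and Irgm1 (0.13, edgeR adjusted p = 0.695), did not pass. Iigp1 had 877.3 and 978.8 CPM in the PT2385 pools and 539.7 and 1106 CPM in the PT2385+ICB pools, against 215.6 and 199.1 CPM in the ICB pools and 265.7 CPM in the untreated library (log2 1.89 ± 0.22, edgeR adjusted p = 0.0126). Its relatives Gm4951 (1.96 ± 0.26) and F830016B08Rik (2.62 ± 0.33) and the guanylate-binding Gbp2b (2.83 ± 0.49) rose in the same 4 libraries, at edgeR adjusted p = 0.0204, 0.0156 and 0.0352. These genes have close copies, and reads that match several could be assigned to either. Without the untreated library, where the fit sets the combination against ICB alone, the 4 genes did not pass, nor did the others named for this treatment.

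The other named rises were of varied function. Saa3, an acute-phase apolipoprotein of macrophages, had 279.3 and 226.6 CPM in the PT2385 pools and 138.1 and 107.9 CPM in the PT2385+ICB pools, against 12.4 and 50.6 CPM in the ICB pools and 60.3 CPM in the untreated library (log2 1.93 ± 0.36, edgeR adjusted p = 0.0421). Cd38 and Bst1, ectoenzymes that consume NAD, rose by 1.63 ± 0.28 and 1.24 ± 0.17 (edgeR adjusted p = 0.0352 and 0.0204). Upp1, a uridine phosphorylase, and Selenom, a selenoprotein of the endoplasmic reticulum, rose by 1.54 ± 0.29 and 1.38 ± 0.25 (edgeR adjusted p = 0.0423 and 0.0419), though in Upp1 1 library with PT2385 lay below the untreated one. Mertk, a receptor for apoptotic cells, rose by 0.90 ± 0.15 while the related receptor Axl fell by 0.84 ± 0.13 (edgeR adjusted p = 0.0339 and 0.0301). Ccl5, a chemokine for T cells and monocytes, rose by 0.94 ± 0.18 (edgeR adjusted p = 0.0495) although the groups overlapped, and T cell barcodes held it too (3921 CPM with PT2385 and 2642 CPM without). Its source in the monocyte barcodes was not tested.

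**Figure D3:**
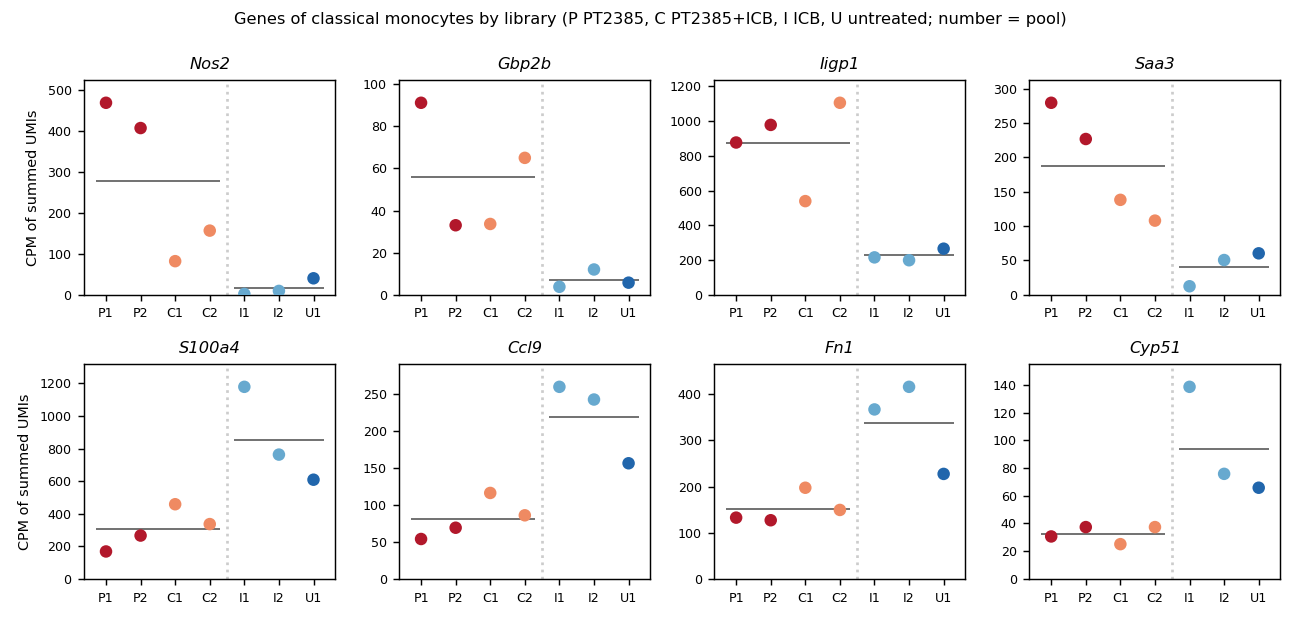
Level (CPM of UMIs summed over classical monocytes, vertical axes, from 0) of 8 genes in each library. Points are libraries (P PT2385, C PT2385+ICB, I ICB, U untreated, with the pool number), grey lines are means of the 4 libraries with PT2385 and the 3 without, and the dotted line divides them. Nos2, Gbp2b, Iigp1 and Saa3 are higher and S100a4, Ccl9, Fn1 and Cyp51 lower in each library with PT2385 than in each without.

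Genes of classical monocytes were among those that fell. S100a4, which binds calcium and promotes cell motility, had 168.2 and 265.8 CPM in the PT2385 pools and 458.1 and 336.2 CPM in the PT2385+ICB pools, against 1179 and 762.8 CPM in the ICB pools and 608.7 CPM in the untreated library (log2 -1.39 ± 0.20, edgeR adjusted p = 0.0204). Ccl9, a chemokine for myeloid cells, had 53.8, 69.0, 116 and 85.8 CPM with PT2385 in the same order, against 259.2 and 242.1 CPM in the ICB pools and 156 CPM in the untreated library (-1.35 ± 0.13, edgeR adjusted p = 0.00864). Fn1, the matrix protein fibronectin, fell to 151.7 ± 32 CPM with PT2385, against 337.1 ± 98 CPM without it (-1.05 ± 0.13, edgeR adjusted p = 0.0126). In these 3 genes no library with PT2385 reached the level of any without it. Of the 30 classical monocyte genes outside the rule 0 rose and 5 fell, the others being Ms4a4c and the cytoskeletal scaffold gene Ahnak, and their median was -0.29, against 0.01 over all genes tested. Over all genes tested 0.376% passed as higher and 0.888% as lower. Ccr2 had 566.7 ± 123.8 CPM with PT2385 and 765.2 ± 182.2 CPM without it, and did not pass (-0.44 ± 0.19, edgeR adjusted p = 0.304).

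Neutrophil genes were the largest named falls. Retnlg, a resistin-like protein of neutrophils, had 0 and 4.1 CPM in the PT2385 pools and 6.44 and 0 CPM in the PT2385+ICB pools, against 439.2 and 106.5 CPM in the ICB pools and 22.6 CPM in the untreated library (log2 -5.02 ± 0.85, edgeR adjusted p = 0.0344). Cd177, a neutrophil surface protein, fell by 3.24 ± 0.33 (edgeR adjusted p = 0.00864). ICB pool 1 held 64.9% of the Retnlg UMIs and 36.1% of the Cd177 UMIs of the 3 libraries without PT2385. Of 13 tested genes of neutrophil-like monocytes 1 rose (Saa3) and 2 fell, with a median of -3.24, where 1.26% of all genes tested passed. Without ICB pool 1 the median was -0.99 over 12 genes, of which 1 rose and 4 fell. S100a8 and S100a9 did not pass (edgeR adjusted p = 0.363 and 0.319). The 6 neutrophil markers other than Csf3r summed to 30.4 to 417 CPM in libraries with PT2385 and 277.9 to 7945 CPM in those without. The part of stray neutrophil transcripts in these falls was not tested.

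The other large falls were of varied function. Sulf2, an enzyme that trims heparan sulphate, lay at -1.43 ± 0.13 and Gpr183, an oxysterol receptor that guides migrating immune cells, at -1.52 ± 0.26 (edgeR adjusted p = 0.00864 and 0.0344). Tmem176b, a membrane protein of dendritic cells and monocytes, lay at -1.37 ± 0.27 (edgeR adjusted p = 0.0496). Ms4a4c and Ahnak lay at -0.82 ± 0.12 and -0.61 ± 0.09 (edgeR adjusted p = 0.0204 and 0.0235). Of 24 monocyte to macrophage differentiation genes 1 rose (Mertk) and 2 fell (Tmem176b and Axl), with a median of 0.07, and of 21 monocyte transcription factor genes 1 fell (Bach1), with a median of -0.16. None of 15 non-classical monocyte and 14 dendritic cell genes passed, with medians of -0.21 and -0.34. Over all genes tested 1.26% passed.

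Most chemokine and cytokine genes were fitted below 0, and 2 of 16 chemokine and 3 of 18 inflammatory cytokine genes passed, against 1.26% of all genes tested. Of 16 chemokine genes 1 rose (Ccl5) and 1 fell (Ccl9), 15 were fitted below 0 and the median was -1.16. The interferon-induced T cell attractant Cxcl10 had 290.6 and 605.4 CPM in the PT2385 pools and 377.9 and 665.5 CPM in the PT2385+ICB pools, against 1468 and 1095 CPM in the ICB pools and 1103 CPM in the untreated library, and just missed the threshold (-1.32 ± 0.26, edgeR adjusted p = 0.0507). Of 18 inflammatory cytokine genes 0 rose and 3 fell, namely the IL-6 family cytokine Osm (-0.99 ± 0.16), Il18 (-0.78 ± 0.14) and the NF-κB inhibitor Nfkbia (-0.66 ± 0.10), with a median of -0.51. Osm had 158.1 ± 34.8 CPM with PT2385 and 307.3 ± 9.82 CPM without it (edgeR adjusted p = 0.0303). Il1b, by contrast, lay at -0.11 (edgeR adjusted p = 0.865). Of 16 S100 and annexin genes 3 fell (S100a4, S100a10, Anxa2), with a median of -0.58. Among 23 genes of immunosuppressive myeloid cells 1 rose (Nos2) and 2 fell, the latency-associated growth factor Tgfb1 (-0.59 ± 0.10, edgeR adjusted p = 0.0314) and Lgals9, which encodes the TIM-3 ligand galectin-9 (-0.67 ± 0.12, edgeR adjusted p = 0.0418). The checkpoint ligand Cd274 had 752.7 ± 251.2 CPM with PT2385 and 460 ± 79.6 CPM without it, and did not pass (0.57 ± 0.18, edgeR adjusted p = 0.179).

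The medians of genes induced by type I and by type II interferon lay on opposite sides of 0. Of 38 type I interferon genes 0 rose and 2 fell (Slfn4 and Ifi204), while 37 were fitted below 0, with a median of -0.67. Of all genes tested 0.376% passed as higher and 0.888% as lower, with a median of 0.01. Slfn4, a schlafen gene of myeloid cells, had 29.0 and 48.5 CPM in the PT2385 pools and 57.3 and 27.7 CPM in the PT2385+ICB pools, against 297.2 and 80.8 CPM in the ICB pools and 224.2 CPM in the untreated library (-2.34 ± 0.42, edgeR adjusted p = 0.0418). The transcription factor gene Irf7 lay at -0.77 and the ubiquitin-like modifier Isg15 at -0.86, both without passing (edgeR adjusted p = 0.0695 and 0.0935). Of 23 interferon gamma genes 4 rose (Gbp2b, Gbp8, Iigp1 and Gm4951), 0 fell, and the median was 0.38. Of 20 MHC class I genes 1 rose (H2-Q7, 0.59 ± 0.11, edgeR adjusted p = 0.0419), with a median of 0.17. All 10 MHC class II genes tested were fitted above 0 and none passed, with a median of 0.28. H2-Ab1 had 7241 ± 250.7 CPM with PT2385 and 5509 ± 605.3 CPM without it, in groups that did not overlap (0.36, edgeR adjusted p = 0.0711). These lists were chosen with earlier results of these data known. Over the fits that leave out 1 library the number of type I interferon genes that fell ranged from 0 to 28 and that of interferon gamma genes that rose from 0 to 7.

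**Figure D4:**
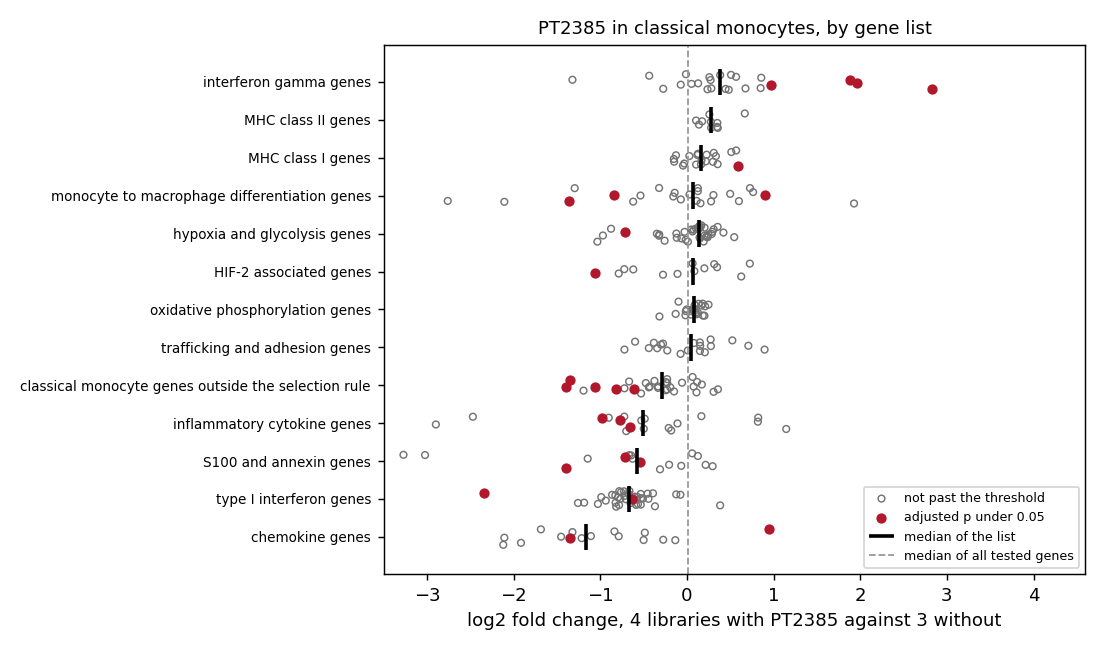
Log2 fold change with PT2385 (4 libraries against 3, horizontal axis) of each tested member of 13 gene lists in classical monocytes. Filled points passed at an edgeR adjusted p under 0.05, open points did not, black bars are list medians and the dashed line is the median of all genes tested. The medians of the type I interferon and chemokine lists lie at -0.67 and -1.16 and that of the interferon gamma list at 0.38.

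The hypoxia and HIF-2 lists held 1 gene each that passed, where 1.26% of all genes tested did. Epas1, which encodes the target of PT2385, averaged 1.55 CPM and was too low to test in monocytes. Hif1a, its relative, had 581.5 ± 86.5 CPM with PT2385 and 483.1 ± 162.1 CPM without it (0.18 ± 0.21, edgeR adjusted p = 0.75). Of 37 hypoxia and glycolysis genes 0 rose and 1 fell (Anxa2), with a median of 0.13, and of 13 HIF-2 associated genes 0 rose and 1 fell (Fn1), with a median of 0.07. No transcript shows whether the drug reached HIF-2α. In 20 trafficking, 10 iron, 21 stress, 16 proliferation and 23 oxidative phosphorylation genes 0 passed in either direction, with medians of 0.05, 0.27, -0.25, 0.06 and 0.09.

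Sterol synthesis genes and genes of the p200 family, which encode interferon-induced DNA-binding proteins, stood out among the falls, and both lists were chosen after their values were seen. Of 25 sterol genes 8 fell and 0 rose. Of all genes tested 0.888% passed as lower and 0.376% as higher, but lists drawn from these same values are no test of that difference. Those that fell included the synthesis enzymes Hmgcs1, Sqle, Idi1, Cyp51 and Fdft1, and the regulators Insig1 and Srebf2. Cyp51 had 30.6 and 37.4 CPM in the PT2385 pools and 25.05 and 37.36 CPM in the PT2385+ICB pools, against 138.6 and 75.8 CPM in the ICB pools and 65.8 CPM in the untreated library (-1.41 ± 0.25, edgeR adjusted p = 0.0381). Srebf2 encodes the transcription factor that drives these genes and had 53.7 ± 5.22 CPM with PT2385 and 93.5 ± 20.2 CPM without it (-0.82 ± 0.15, edgeR adjusted p = 0.0419). In both genes the groups did not overlap. Of 12 p200 genes 4 fell (Ifi203, Ifi204, Ifi207 and Mndal), 0 rose and 12 were fitted below 0. Over the fits that leave out 1 library the sterol genes that fell ranged from 0 to 12 and the p200 genes that fell from 0 to 8. Both numbers were 0 without the untreated library, PT2385 pool 1, PT2385 pool 2 or PT2385+ICB pool 2. Mndal had 295.6 ± 33.1 CPM with PT2385 and 569.2 ± 97 CPM without it (-0.96 ± 0.14, edgeR adjusted p = 0.0204).

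Promoters of 3 genes of the interferon groups and 1 sterol gene are shown because the first hold the same interferon response letters although Gbp2b rose and Ifi207 and Mndal fell. The sequences are RefSeq promoters of build GRCm38.p6, from 250 bases before to 50 after the start, and 94 of the 131 called genes had one. Gbp2b lies at chr3:142594597-142594896 (plus strand), Ifi207 at chr1:173741760-173742059 (minus), Mndal at chr1:173880138-173880437 (minus; the first of its promoters in the table) and Hmgcs1 at chr13:119690101-119690400 (plus). Capitals mark the interferon-stimulated response element, searched on both strands as GAAA, any 2 bases and GAAA, and in Hmgcs1 the letters TCACNCCAC of a sterol regulatory element.
Gbp2b: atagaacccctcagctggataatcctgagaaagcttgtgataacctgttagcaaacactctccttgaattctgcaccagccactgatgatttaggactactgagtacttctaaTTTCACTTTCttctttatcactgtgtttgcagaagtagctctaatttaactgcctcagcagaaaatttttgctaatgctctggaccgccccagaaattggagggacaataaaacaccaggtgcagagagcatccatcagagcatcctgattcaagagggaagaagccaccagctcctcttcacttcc
Ifi207: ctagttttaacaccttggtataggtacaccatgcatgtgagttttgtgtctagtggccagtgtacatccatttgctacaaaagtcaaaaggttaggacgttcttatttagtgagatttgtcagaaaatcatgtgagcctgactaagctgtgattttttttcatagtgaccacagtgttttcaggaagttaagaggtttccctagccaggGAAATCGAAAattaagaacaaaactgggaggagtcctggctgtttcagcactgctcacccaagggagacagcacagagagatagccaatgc
Mndal: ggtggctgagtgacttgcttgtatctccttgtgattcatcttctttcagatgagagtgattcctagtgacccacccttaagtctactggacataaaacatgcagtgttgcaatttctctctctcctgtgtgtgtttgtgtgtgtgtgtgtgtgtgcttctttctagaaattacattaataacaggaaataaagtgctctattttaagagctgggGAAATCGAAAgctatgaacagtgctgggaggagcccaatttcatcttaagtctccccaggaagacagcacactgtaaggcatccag
Hmgcs1: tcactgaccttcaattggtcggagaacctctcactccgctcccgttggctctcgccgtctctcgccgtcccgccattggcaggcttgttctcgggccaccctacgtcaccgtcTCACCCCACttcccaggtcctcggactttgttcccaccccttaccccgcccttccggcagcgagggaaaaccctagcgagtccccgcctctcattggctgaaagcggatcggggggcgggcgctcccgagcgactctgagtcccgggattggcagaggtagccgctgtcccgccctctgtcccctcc
The interferon-stimulated response element was present in 3.44% of all promoters in the table and in at least 1 promoter of 4.36% of the 8163 tested genes that have one there. It was found in 4 of the 26 risen genes with a promoter and in 7 of the 68 fallen ones, among them the 3 p200 genes with one. TCACNCCAC was present in 1.24% of all promoters and in 1 of the 5 fallen sterol genes with one. A match says only that these letters are there.

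Shares of cells with a transcript were compared after thinning each monocyte to 3000 UMIs. Nos2 was detected in 32.2 and 34.5% of monocytes in the PT2385 pools and 10.4 and 21.7% in the PT2385+ICB pools, against 0.67 and 2.03% in the ICB pools and 7.26% in the untreated library. Without thinning the share ran from 0.90% in ICB pool 1 to 45.0% in PT2385 pool 2, and T cell barcodes reached at most 1.47%. The means with and without PT2385 were 24.7 ± 11 and 3.32 ± 3.48% (exact permutation p = 0.0571, adjusted p = 0.389). H2-Ab1 was detected in 95.8 ± 2.61% with PT2385 and 80.3 ± 6.79% without it, and Fn1 in 20.9 ± 1.25% and 38.9 ± 8.67%. Both reached the smallest exact permutation p of the design (0.0286), and neither passed over the 34 shares tested (adjusted p = 0.389). H2-Ab1 was also detected in 13.9 to 31.7% of T cell barcodes thinned in the same way. S100a8 was detected in more monocytes with PT2385 (9.10 ± 1.87%) than without it (3.79 ± 1.92%; exact permutation p = 0.0571, adjusted p = 0.389), although its summed level was highest in ICB pool 1, where 4 barcodes held at least 50% of its UMIs.

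With ICB 0 of 10361 genes passed by edgeR (0% of genes tested, 892 at an unadjusted p under 0.05, and 37 by DESeq2). The ICB effect compares 4 libraries with ICB, alone or with PT2385, with 3 without. The genes with the smallest p were the chemokine Ccl6 (0.93 ± 0.13), the mitochondrial ADP/ATP carrier Slc25a4 (0.78 ± 0.11) and Nos2 (-2.08 ± 0.32), each at edgeR adjusted p = 0.207. Ccl6 had 395.8 and 286.4 CPM in the PT2385+ICB pools and 500 and 505.1 CPM in the ICB pools, against 177.2 and 207 CPM in the PT2385 pools and 244.2 CPM in the untreated library. Havcr2, which encodes the TIM-3 that one of the antibodies binds, had 143.1 ± 27.8 CPM with ICB and 144.3 ± 21.7 CPM without it (-0.04 ± 0.14, edgeR adjusted p = 0.989). Pdcd1, which encodes PD-1, averaged 0.66 CPM in monocytes and was too low to test. In simulated counts a 2-fold change was found in 78% of the changed genes for ICB, 82.5% for PT2385, 48% for the combination against ICB, 36% for the combination against untreated and 9% for the interaction. The 200 changed genes were drawn from the better-covered ones. The simulated spread depended on expression level alone and held no stray cells, so recovery in these libraries can be lower.

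The combination was also set against ICB alone and against no treatment. Against ICB alone 0 of 10985 genes passed by edgeR (0%; unadjusted p was under 0.05 for 1067, and DESeq2 called 57). When ICB pool 2 was left out 218 passed. Crip1, a small zinc-binding protein gene, had 685 and 715.3 CPM with both treatments, against 1307 and 1189 CPM with ICB alone (-0.84 ± 0.10, edgeR adjusted p = 0.149). Nos2 lay at 4.18 ± 0.50 (edgeR adjusted p = 0.149) and H2-Ab1 at 0.50 ± 0.06 (edgeR adjusted p = 0.152). Against the untreated library 0 of 10985 passed by edgeR (0%, 852 at an unadjusted p under 0.05, and 15 by DESeq2). Slc15a2, a peptide transporter, had 98.8 and 114.2 CPM with both treatments, against 7.0 CPM in the untreated library, and came closest (3.89 ± 0.35, edgeR adjusted p = 0.0575). It had 107.1 and 70.3 CPM with ICB alone and 29.6 and 39.4 CPM with PT2385 alone, and T cell barcodes held 47.9 CPM with both treatments and 2.26 CPM without any, so that its source in the monocyte barcodes was not tested. For the interaction of the treatments 0 of 10985 genes passed by edgeR (0%, 348 at an unadjusted p under 0.05, and 2 by DESeq2). Arg1 had the smallest p there (-3.15 ± 0.51, edgeR adjusted p = 1.0), with the levels given above.

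For 62 of 11843 genes the PT2385 difference itself differed between classical monocytes and C1q-high macrophages of the same libraries (edgeR, library as block; 0.524% of genes tested), 26 more positive in monocytes (0.220%) and 36 more negative (0.304%). Iigp1 was higher with PT2385 in both populations and more so in monocytes, by 1.89 ± 0.22 against 1.02 ± 0.19 in macrophages (difference 0.86 ± 0.10, edgeR adjusted p = 0.00525). It had 875.5 ± 242.7 CPM in monocytes with PT2385 and 226.8 ± 34.7 CPM without it, and 540.8 ± 121.8 and 260.7 ± 46.8 CPM in macrophages. F830016B08Rik and Gm4951 differed the same way, by 1.505 ± 0.17 and 0.71 ± 0.11 (edgeR adjusted p = 0.00525 and 0.0140). The related Gbp5 and Irgm1 differed the opposite way, by -0.54 ± 0.11 and -0.44 ± 0.08 (edgeR adjusted p = 0.0462 and 0.0362). Of 23 interferon gamma genes 2 were more positive in monocytes by this test (Iigp1 and Gm4951) and 3 more negative (Gbp5, Irgm1 and Irf1), and 9 were fitted above 0 and 14 below, with a median of -0.22, against 0.01 over all genes tested. Of 10 MHC class II genes 4 were more positive in monocytes, H2-Ab1 and H2-DMb2 among them, and 0 more negative. All 10 were fitted above 0, with a median of 0.36. Klrb1b, a C-type lectin-like receptor gene, had 58.9 ± 17.4 CPM in monocytes with PT2385 and 30.1 ± 2.06 CPM without it, but 27.9 ± 9.08 and 52.5 ± 20.1 CPM in macrophages (difference 1.75 ± 0.23, edgeR adjusted p = 0.00669). Il1r2, the IL-1 decoy receptor, had 161.5 ± 31.7 and 223.6 ± 65.3 CPM in monocytes and 52.2 ± 19.3 and 183.5 ± 89.7 CPM in macrophages, in the same order (difference 1.35 ± 0.18, edgeR adjusted p = 0.00669).

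Other genes were lower with PT2385 in monocytes relative to macrophages. Rsad2 (viperin, an antiviral enzyme) had 171.1 ± 15.5 CPM in monocytes with PT2385 and 272.2 ± 82.1 CPM without it, and 160.1 ± 27.9 and 142.2 ± 33.2 CPM in macrophages (difference -0.79 ± 0.10, edgeR adjusted p = 0.00669). Irf1, an interferon-induced transcription factor, lay at 0.27 in monocytes, while macrophages had 385.9 ± 89.2 CPM with PT2385 and 198.3 ± 26.7 CPM without it (difference -0.65 ± 0.09, edgeR adjusted p = 0.0114). Morrbid, a long non-coding RNA that controls survival of short-lived myeloid cells, fell in monocytes by 1.09 ± 0.11 and lay at -0.47 in macrophages (difference -0.61 ± 0.09, edgeR adjusted p = 0.0140). Nos2 did not pass this test (difference 1.11 ± 0.27, edgeR adjusted p = 0.112), nor did Hif1a, Havcr2, Ccr2, Arg1 or Cd274. The count of 62 was 6 without PT2385+ICB pool 2, 12 without the untreated library and 104 without ICB pool 1. For the ICB difference between the populations 0 of 11843 genes passed by edgeR (0%, 675 at an unadjusted p under 0.05; DESeq2 was not run).

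**Figure D5:**
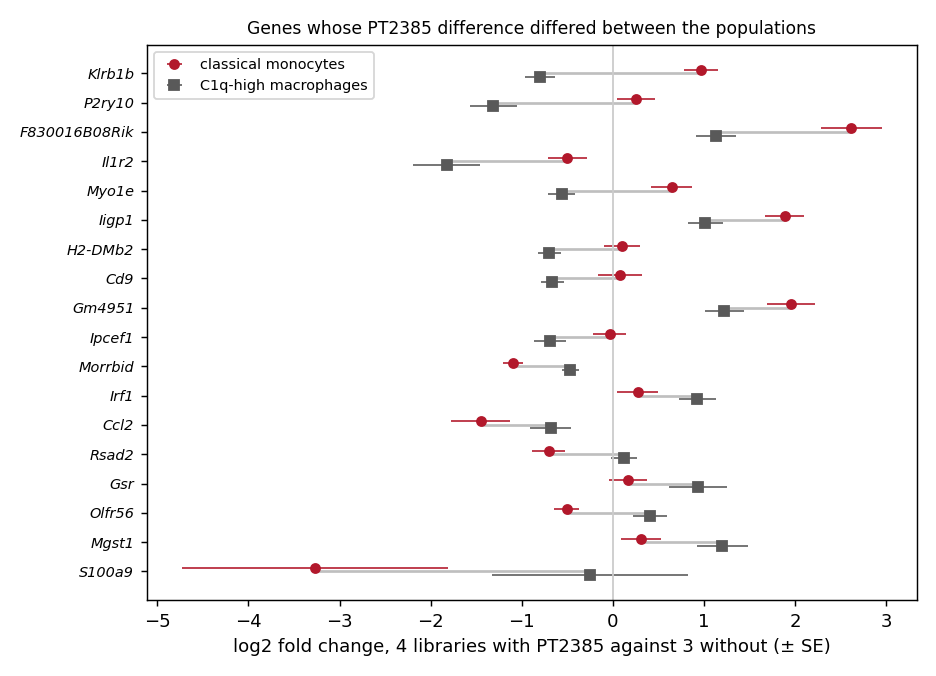
Log2 fold change with PT2385 (4 libraries against 3, horizontal axis; bars are SEs) in classical monocytes (circles) and C1q-high macrophages (squares) for 18 named genes whose PT2385 difference passed the test between the populations. Ngp, which had 1 UMI in monocytes with PT2385, is left out. Iigp1, Gm4951 and F830016B08Rik lie above 0 in both populations and farther in monocytes.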

How the data were processed

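The files deposited by the authors hold raw UMI counts per gene and called cell barcode, 1 matrix per library, with no normalization (unit: counts). Libraries were made with Chromium 3' v3.1 reagents, per the labels' protocols. Per the submitters' processing notes Cell Ranger 2.2.0 and GRCm39 were used, while the file headers name Cell Ranger 7.0.0; Seurat 5 is also noted. UMIs of classical monocytes were summed per library, scaled by TMM, filtered with filterByExpr and tested with edgeR 4.0.16 (R 4.3.3; quasi-likelihood test, Benjamini-Hochberg adjustment, threshold 0.05; additive model with 4 residual degrees of freedom, group means with 3). The design took 7 libraries of 14 mice. SEs are absolute log2 fold changes over the square root of F. Shares were tested by exact permutation (scipy 1.17.1). Doublets were scored with Scrublet (scanpy 1.11.5), whose automatic threshold marked 11 barcodes and so had not worked; as an alternative the highest scores, 0.8% per 1000 barcodes, were removed (1918 barcodes, 33 classical monocytes). The tests were repeated with DESeq2 1.42.0, with RLE scaling, without the filter, with stricter or thinned selection and leaving out each library. Genes named per comparison are the 10 largest rises and falls among those past the threshold, with a mean of at least 20 CPM and the same direction in each treated library (the 3 smallest p-values where fewer than 3 passed), 8 fixed genes and passing list members. The text gives most of them, and some genes are not reported here. Members and lists were chosen with earlier results of these data known. The test was tried on simulated data with 200 changed genes.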

Additional observations from a re-analysis of the deposited data

Results flagged for a closer look

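The PT2385 difference of 19 named genes differed between classical monocytes and C1q-high macrophages by the test of the difference itself (edgeR adjusted p under the threshold for each). On the log2 scale, monocytes minus macrophages, it was 1.745 for Klrb1b, 1.629 for P2ry10, 1.505 for F830016B08Rik, 1.348 for Il1r2, 1.188 for Myo1e, 0.8627 for Iigp1, 0.8323 for H2-DMb2, 0.8013 for Cd9, 0.7113 for Gm4951 and 0.6828 for Ipcef1. It was -0.9035 for Mgst1, -0.8978 for Olfr56, -0.803 for Gsr, -0.7862 for Rsad2, -0.7618 for Ccl2, -0.648 for Irf1 and -0.6065 for Morrbid. The monocyte values of P2ry10, Il1r2, H2-DMb2, Cd9, Ipcef1, Mgst1, Gsr and Irf1 with PT2385 were 0.25, -0.50, 0.11, 0.08, -0.04, 0.31, 0.17 and 0.27, none of which passed. Those of macrophages lay farther from 0, at -1.31, -1.82, -0.70, -0.67, -0.69, 1.20, 0.93 and 0.93. Among these only H2-DMb2 and Cd9 passed in macrophages (edgeR adjusted p = 0.0414 and 0.0493).

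The same test gave -8.948 for Ngp and -3.544 for S100a9, both neutrophil genes. Ngp had 1 UMI in monocytes of the 4 libraries with PT2385 and 2823 in the 3 without, a ratio of 4.75e-04 (exact 95% counting interval 1.2e-05 to 0.00265), and 97.6% of those 2823 came from ICB pool 1. The interval covers counting error only. It treats UMIs as independent and leaves out the spread between libraries and between cells, so it does not measure a treatment effect. The part of stray neutrophil transcripts in these values was not tested.

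Ern1, which encodes a sensor of unfolded proteins, lay on opposite sides. It had 151.7 and 143.9 CPM in the PT2385+ICB pools, against 132 and 129.6 CPM in the ICB pools, and 114.4 and 107.7 CPM in the PT2385 pools, against 194.7 CPM in the untreated library. The interaction of 1.052 did not pass (edgeR adjusted p = 1.0).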

How the results depend on the processing

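Of the counts of genes, that for PT2385 was 930 with no filter on low counts, 43 with no C1q UMI allowed, 330 by DESeq2, 45 with 1 mean per group and 257 without barcodes with markers of other types except Csf3r (an alternative chosen after seeing the data). It was 132 without barcodes with any marker of other types, 65 of them among the 131, and 161 with the rule on thinned counts, 91 of them among the 131. With 1 library left out it ranged from 0 to 352. For ICB it was 369, 2, 37 and 1 under the first 4 of these and 1 without barcodes with any marker of other types, and 0 to 8 with 1 library left out. For the combination against ICB it was 514 with no filter, 4 with no C1q UMI, 5 with the rule on thinned counts, 5 without barcodes with markers of other types, 15 with Csf3r kept and 57 by DESeq2, and 0 to 218 with 1 library left out. Against the untreated library it was 329, 2 without barcodes with markers of other types, 1 with Csf3r kept, 15 by DESeq2, and 0 to 8. For the interaction it was 93, 2 by DESeq2, and 0 to 3. For the PT2385 difference between populations it was 365 with no filter, 25 with no C1q UMI, 24 on thinned counts and 6 to 104 with 1 library left out, and for the ICB difference 92, 3 and 0 to 3. The cause was not tested. In the setting with thinned counts, these only chose the monocytes, whose full UMIs were then summed. The macrophages were chosen on unthinned counts there, so the 2 choices were unlike. With it Ngp and S100a9 turned to 2.272 and 0.2801 (edgeR adjusted p = 0.341 and 0.977), with other values negative. Both shares kept their direction and did not pass under any alternative. Leaving out a library lowers the residual degrees of freedom. Without the untreated library the PT2385 effect is that of the combination against ICB alone, and the ICB effect that of the combination against PT2385 alone. This holds for the differences between populations as well. No paired analysis was possible because the labels give no replicate numbers. Depth limits the comparisons that use the PT2385+ICB pools, which held 123 and 126 monocytes.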
